A study of Mus musculus with 27 samples.

Results

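Gata4 (G), Mef2c (M) and Tbx5 (T) are 3 heart transcription factors that together push fibroblasts towards a cardiomyocyte-like state. The regions described here gained accessibility after a combination of them and gained less or none after any one alone. They were chosen by ratios to a control, so some were already accessible without a combination. Openness was read by ATAC-seq, where a transposase cuts and tags DNA that is not packed away, and a region is an interval for which the deposited table gives counts. There were 272 such regions among 30815 in the table (0.883%). They were chosen from the same counts that are described below. Counts were turned into counts per 1e6 of each library's total (CPM), the 3 libraries of a group were averaged and 5 was added. A region was taken where G, M and T alone were each below about 1.7 times the control on that scale (the exact ceiling lies between the 1.667 and 1.671 of the nearest regions given further on), and where the highest of GM, GT, MT and GMT was at least 3 times the control. The levels in these groups are therefore a description of how the regions were chosen, and no test of them is given. CPM is not divided by region width, so levels are compared between groups within a region.

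All groups came from one cell line of neonatal cardiac fibroblasts of strain Cd-1 that express large T antigen and carry the alpha-MHC-GFP reporter, a fluorescent protein under a heart muscle promoter. Cells received retroviruses and were taken unsorted at day 2. The control received a virus for dsRed, a red fluorescent protein, and no inhibitors. The other 7 groups received Gata4 (group G), Mef2c (M), Tbx5 (T), Gata4 and Mef2c (GM), Gata4 and Tbx5 (GT), Mef2c and Tbx5 (MT) or all 3 factors (GMT), each with sb431542, an inhibitor of TGF-beta signalling, and xav939, an inhibitor of Wnt signalling. Comparisons with the control thus hold factors and inhibitors together, whereas single factors, pairs and GMT were matched for the inhibitors. The 3 samples that received dsRed together with both inhibitors were not analysed here. The share of cells that took up every virus of a combination is not given in the sources used here. In bulk libraries, more cells with an open region and a more open region in each cell cannot be told apart.

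Gata4 is a zinc-finger protein that can bind sites in closed chromatin, Mef2c is a MADS-box protein of muscle gene control, and Tbx5 is a T-box protein of heart and forelimb development. Heart enhancers often carry binding sites for more than one of them, and the proteins are known to contact each other. Regions that need more than one factor are commonly discussed as sites of cooperative binding, in which neighbouring factors help each other to displace a nucleosome. The data here hold accessibility only, with no binding measured. Regions are named by their mm9 coordinates, and genes, sequences and binding motifs were not assigned to them.

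The libraries had 3 per group and total counts from 241394 (GMT replicate 1) to 1704896 (MT replicate 1), with a median of 661976. The median region of the 272 had 248 counts over all 24 libraries, but only 3 to 4 counts in each control library, so a ratio to the control rested on few counts. The library labelled GT replicate 1 stood apart. Its rank correlations across all regions were 0.798 to 0.905 with the G libraries and 0.748 to 0.781 with the other GT libraries. GMT replicate 1 was the shallowest library. Without GT replicate 1 the same choice gave 302 regions, among them all 272, and without GMT replicate 1 it gave 419, among them 269. Fewer of the 272 were kept when a control library was left out: without control replicate 1, 2 or 3 the choice gave 256, 291 or 258 regions, of which 159, 215 and 181 were among the 272. The labels call the replicates biological and do not say what separates them, so spreads may be partly technical.

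With all libraries, GMT passed the threshold in more of the regions than any pair. At 3 times the control or more stood 183 regions in GMT (67.3%), 74 in MT (27.2%), 40 in GT (14.7%) and 27 in GM (9.93%). The whole table had the same order, so it is not particular to these regions. Over all 30815 regions the upper quartile of the ratio to the control was 1.58 in GMT, 1.47 in MT, 1.43 in GT and 1.37 in GM. The threshold was passed by a single combination in 223 regions (82%), of which 134 passed it in GMT, 50 in MT, 21 in GM and 18 in GT. Of the 49 regions that passed in more than 1 combination, 21 did so in MT and GMT, 21 in GT and GMT, 4 in GM and GMT, 2 in GM, MT and GMT and 1 in GT, MT and GMT. The order depended on the replicates, since with the replicate 3 libraries left out 144 of 273 regions passed in MT and 128 in GMT. No region reached 3 times the control in all 4 combinations. A combination that held Mef2c passed in 254 regions (93.4%), one that held Tbx5 in 251 (92.3%) and one that held Gata4 in 222 (81.6%), where 3 of the 4 combinations hold any given factor. The shares of all regions that pass the threshold are not given here, so nothing is read from these counts. By the combination with the highest level, 161 regions were GMT regions, 61 MT regions, 25 GT regions and 25 GM regions, and these names are used from here on.

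**Figure D1:**
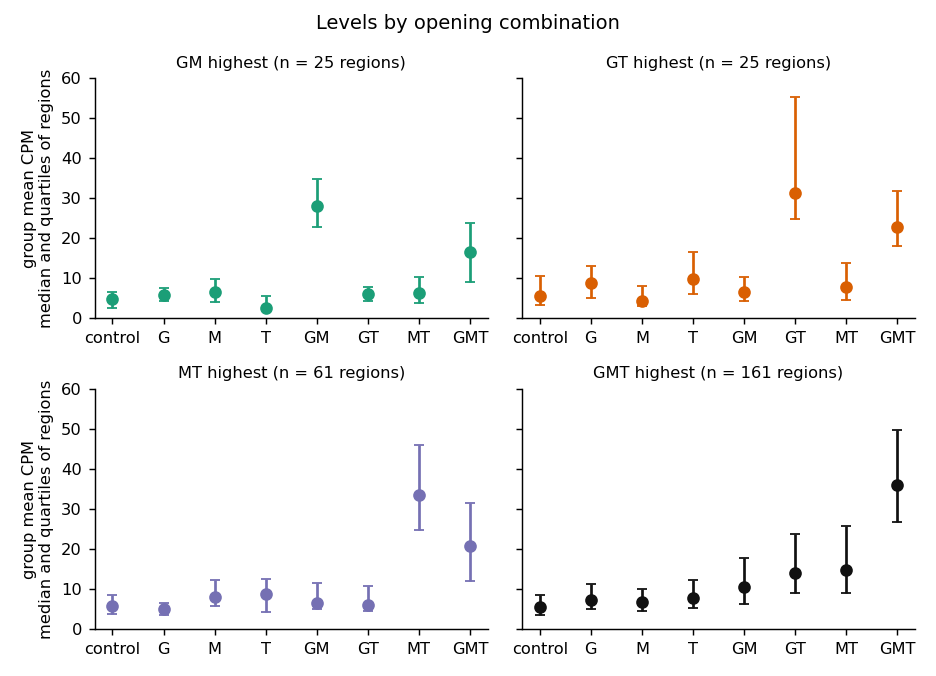
Group mean CPM (vertical axis) in the 8 groups (horizontal axis) for regions split by the combination with the highest level, with points at the median region and bars from the lower to the upper quartile of regions. In GM regions the median was 28.2 CPM in GM and 16.6 CPM in GMT, while in GMT regions it was 36 CPM in GMT and 14.6 CPM in MT, the highest pair.

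The groups without a combination had low medians close to each other at these regions. The choice set only an upper limit on the single factors relative to the control, and no lower one. The median region had 5.37 CPM in the control, 6.42 CPM in G, 6.82 CPM in M and 7.36 CPM in T. The medians were 10.3 CPM in GM, 12.4 CPM in GT, 17.8 CPM in MT and 29.4 CPM in GMT. Over all 30815 regions the medians ran from 8.55 CPM in T to 13.3 CPM in GMT. The control mean was below 5 CPM in 127 regions (46.7%) and at least 20 CPM in 17 (6.25%). The ratio of the highest combination to the control had a median of 3.5 and a maximum of 7.9. It was below 4 in 202 regions (74.3%) and at least 5 in 24 (8.82%).

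The share of each library's counts that fell in the 272 regions shows how far the libraries of a group agreed. The control libraries held 0.274%, 0.203% and 0.14%, the G libraries 0.275%, 0.274% and 0.193%, the M libraries 0.21%, 0.24% and 0.268% and the T libraries 0.281%, 0.252% and 0.296%. The GM libraries held 0.435%, 0.343% and 0.445%, the GT libraries 0.281%, 0.682% and 0.482%, the MT libraries 0.681%, 0.8% and 0.475% and the GMT libraries 0.568%, 1.14% and 1.19%. The 9 single-factor libraries overlapped the control libraries, and every GM, MT and GMT library stood above all 12 of them. GT replicate 1 did not, since its 0.281% lay below T replicate 3. GMT replicate 1 was the lowest of its group and lay below MT replicates 1 and 2.

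**Figure D2:**
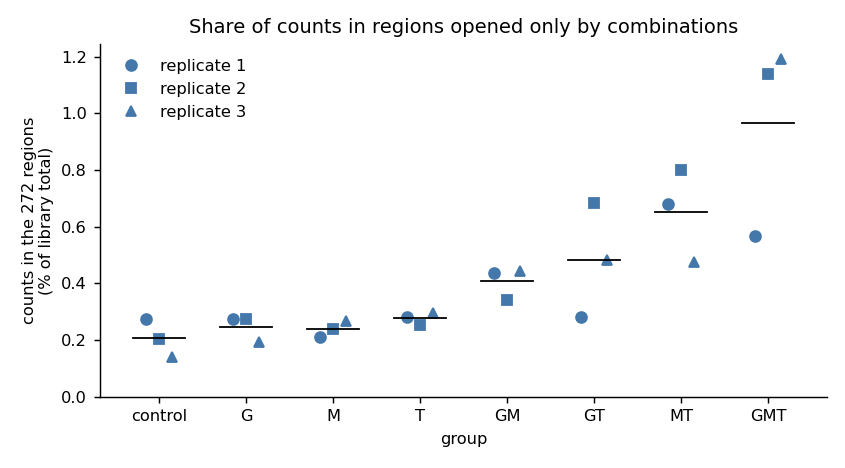
Percent of each library's total counts (vertical axis) that fell in the 272 regions, by group, with 1 symbol per replicate number and a line at the group mean. The control and single-factor libraries lie between 0.14% and 0.296%, and GMT replicates 2 and 3 lie at 1.14% and 1.19%.

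Within a region the libraries often stayed apart as well. The lowest library of the highest combination stood above all 12 control and single-factor libraries in 158 of the 272 regions, where 3.96% of all 30815 regions have libraries separated in this way. The choice of regions used the same libraries, so nothing is read from that share. Separation was found in 94 of 161 GMT regions, 43 of 61 MT regions, 18 of 25 GM regions and 3 of 25 GT regions. From these, the regions with at least 20 CPM in the highest combination and the largest ratio to the next of control, G, M and T are described below, up to 5 per combination. They carry the combination's name and their rank, as in region 2 of GMT.

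The 161 GMT regions are those where all 3 factors gave the highest level. Region 2 of GMT, chr9:90108256-90108601 (346 bp), had the largest ratio to the control of all 272, 7.9. Its 3 GMT libraries had 45.6, 126 and 153 CPM. The control libraries had 10.9, 6.24 and 10.8 CPM, the G libraries 22.2, 23.3 and 8.42, the M libraries 16, 7.75 and 17.5 and the T libraries 18.3, 14.8 and 21.7. The pairs were intermediate, with 26.3, 22.1 and 30.9 CPM in GM, 22.2, 28 and 30.6 in GT and 36.4, 43.1 and 23.4 in MT. All 3 GMT libraries lay above every library of the other groups there, although GMT replicate 1 exceeded MT replicate 2 by little.

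Region 1 of GMT, chr9:53705737-53706235 (499 bp), showed single factors below the control. It had 16.6, 100.3 and 86.8 CPM in the GMT libraries, where the mean was 67.9 ± 45 CPM (SD, n = 3). The control had 9.08 ± 4.55 CPM, and the largest single-factor ratio to it was 0.914, in M. The means of GM at 26 ± 19.8 CPM and MT at 30.1 ± 7.6 CPM were above the control and that of GT at 5.45 ± 1.71 CPM was not. GMT replicate 1 had 4 counts there and lay below all MT libraries and inside the range of GM.

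Region 3 of GMT, chr14:58903531-58903825 (295 bp), passed 3 times the control in GM, MT and GMT but not in GT. GMT had 37.3, 56.3 and 60.4 CPM, MT 32.8, 31.9 and 21, GM 18, 12.3 and 35.5 and GT 8.64, 14.4 and 7.06, against 2.18, 6.24 and 2.49 in the control. Each combination that held Mef2c passed there, and GM overlapped the GT libraries. Region 4 of GMT, chr6:58846640-58847068 (429 bp), passed 3 times the control in MT and GMT, at 51.6, 49.5 and 30.4 and 37.3, 45.3 and 74.6 CPM. The control and single-factor libraries at that region ran from 2.49 to 10.9 CPM. Region 5 of GMT, chr2:59807307-59807886 (580 bp), had 16.6, 64.8 and 68 CPM in GMT and 4.37, 9.98 and 3.32 CPM in the control. Its GM libraries, at 25.7, 4.91 and 37.1 CPM, disagreed with each other.

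The regions that passed only in GMT differed in the level of their pairs. Of these 134 regions, 126 (94%) had a pair at or above the single-factor ceiling of about 1.7, where 33% of all regions did. The choice used the same control libraries, so nothing is read from that share. In addition, 37 (27.6%) had a pair at 2.5 times or more. The highest pair was MT in 57, GT in 56 and GM in 21. In 8 of the 134 (5.97%) all pairs stayed below the ceiling, and in all 8 the GMT libraries were separated from the 12 control and single-factor libraries. The median ratio to the control over the 134 regions was 1.4 in GM, 1.77 in GT, 1.86 in MT and 3.43 in GMT. The order of the pairs is one of medians over regions and was not tested.

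**Figure D3:**
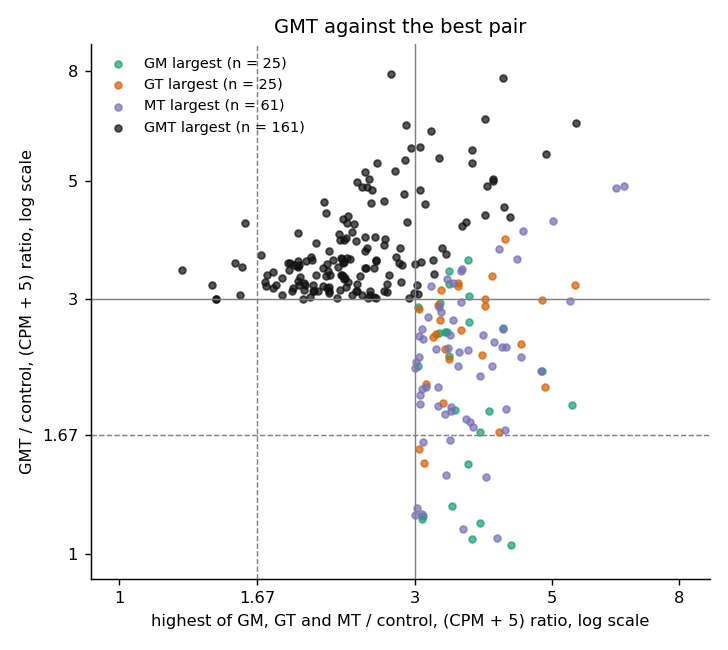
Ratio of GMT to the control (vertical axis, log scale) against the highest ratio of GM, GT and MT (horizontal axis, log scale) on the mean CPM + 5 scale, 1 point per region, coloured by the highest combination. Solid lines mark 3 and dashed lines the ceiling of about 1.7. Of the 134 regions above 3 in GMT only, 126 lie to the right of the dashed line.

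With all libraries MT was the highest combination in 61 regions, more than GM or GT, but without GT replicate 1 GT was the highest in 69 and MT in 61. Region 1 of MT, chr14:50410239-50410537 (299 bp), had 81.5, 102 and 74.7 CPM in the MT libraries and 62.1, 42.8 and 85 CPM in the GMT libraries. Every other library was far lower. The control had 6.55, 13.7 and 6.64 CPM, M 4.8, 11.6 and 15.3, T 13.1, 7.39 and 7.25 and G 5.34, 5.18 and 1.3, and GM and GT had 5.13, 14.7 and 10.8 and 0, 5.09 and 16.5. The libraries of Mef2c alone and Tbx5 alone overlapped the control there, whereas their pair was 6.52 times the control on the mean CPM + 5 scale.

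Region 2 of MT, chrX:158836733-158837194 (462 bp), had the same form, with 69.2, 75.1 and 51.4 CPM in MT and 29, 35.5 and 81.2 CPM in GMT. Its control libraries had 15.3, 1.25 and 1.66 CPM, and the high value rested on 7 counts in control replicate 1. Region 3 of MT, chr10:110985074-110985322 (249 bp), had 55.1, 57.5 and 11.7 CPM in MT, where replicate 3 was low, and 5.37 ± 1.78 CPM in the control. Region 4 of MT, chr15:13219413-13219739 (327 bp), had 104, 84.6 and 56 CPM in MT and 29, 18.3 and 43.4 CPM in GMT, so that no GMT library reached the lowest MT library. Region 5 of MT, chr8:118004339-118004554 (216 bp), had 62.8, 60.7 and 30.4 CPM in MT and 24.9, 25.7 and 32.1 CPM in GMT. In both of the last regions GMT was between the single factors and MT by its mean.

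The 25 GM regions were the only ones where Tbx5 was not in the best combination. Region 3 of GM, chr10:53278727-53279072 (346 bp), had 24.4, 22.1 and 52.5 CPM in GM and 12.4, 19.6 and 25.5 CPM in GMT. G had 4.45, 5.18 and 5.18 CPM, M 8, 4.85 and 6.57, T 2.61, 2.95 and 1.81 and the control 6.55, 4.99 and 0.83. The pairs with Tbx5 stayed low, at 6.17, 0.848 and 9.41 CPM in GT and 5.28, 1.6 and 2.34 CPM in MT. GM was above all control, single-factor, GT and MT libraries and overlapped GMT.

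Region 1 of GM, chr19:42618659-42618864, had 24.6 ± 13.8 CPM in GM, 10.8 ± 6.08 in GMT and 3.5 ± 3.52 in the control, and GM replicate 2 had 4 counts there. Region 2 of GM, chrX:82976628-82976830, had 28.2 ± 6.28 CPM in GM and 26.2 ± 2.88 CPM in GMT, and those libraries overlapped. Region 4 of GM, chr2:122442078-122442372, had 50, 22.1 and 49.5 CPM in GM but 0, 6.12 and 19.8 CPM in GMT, so that its GMT libraries all lay below its GM libraries. Region 5 of GM, chr10:99497631-99497831, had 27.4 ± 13.2 CPM in GM and 18.9 ± 11 CPM in GMT. At these 5 regions the GMT level thus ran from close to the control to close to GM.

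The 25 GT regions depended on the libraries more than the others. Their share of counts was 0.193% in GT replicate 2 and 0.101% in GT replicate 3, but 0.0321% in the library labelled GT replicate 1, inside the 0.0287% to 0.0365% of the G libraries. Only 3 of the 25 had all GT libraries above the control and single factors. Region 2 of GT, chr11:80586341-80586738 (398 bp), had 50.6, 225 and 104 CPM in GT and 33.1, 111 and 81.2 CPM in GMT. The control had 21.8, 33.7 and 31.5 CPM, G 38.2, 31.1 and 50.5, T 7.84, 20.7 and 38.1 and M 6.4, 10.7 and 11. GT replicate 1 was barely above G replicate 3, and GMT replicate 1 lay within the range of G.

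Region 1 of GT, chr7:114859025-114859225, had 8.64, 48.3 and 21.2 CPM in GT and 2.18, 1.25 and 2.49 CPM in the control, and region 3 of GT, chr4:88383744-88384036, had 13.6, 28 and 30.6 and 4.37, 4.99 and 2.49 CPM. Without GT replicate 1, 85 regions passed 3 times the control in GT in place of 40, and without GT replicate 2 only 6 did. The count was 20 without control replicate 1 and 26 without control replicate 3. Relative to its size, that count had the widest range of the 4 when libraries were left out. The number passing in GM was 43 without GM replicate 1 and 69 without GM replicate 2, that in MT 43 without MT replicate 2 and 133 without MT replicate 3, and that in GMT 351 without GMT replicate 1.

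**Figure D4:**
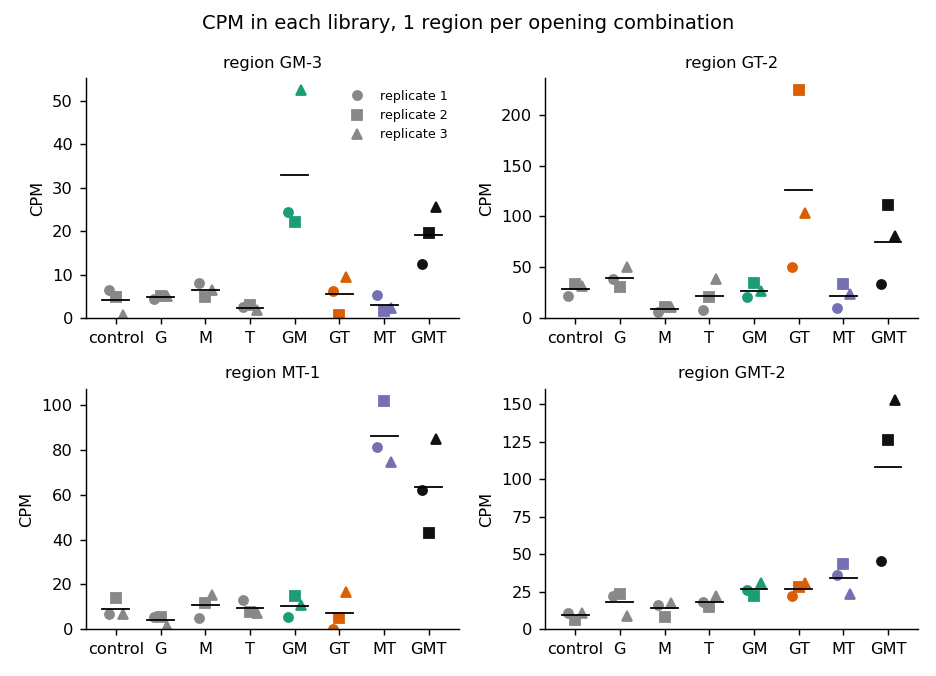
CPM in each of the 24 libraries (vertical axis) by group (horizontal axis) for 1 region of each combination, with 1 symbol per replicate number and a line at the group mean. In region 1 of MT the MT libraries lie between 74.7 and 102 CPM and the control libraries between 6.55 and 13.7 CPM, and in region 2 of GT the replicate 1 library of GT lies near the G libraries.

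Because single factors were held below about 1.7 times the control, a pair at 3 times the control exceeds both the sum of its factors' changes, at most 2.34, and the product of their ratios, at most 2.79, by the choice alone. For GMT the sum is at most 3.01 and the product of 3 ratios at most 4.66, so the choice narrows that comparison too, and nothing is read from either. In 56 of the 272 regions (20.6%) all single factors were at or below 1.25 times the control, and in 94 (34.6%) at least 1 was at 1.5 times or more. The largest single-factor ratio was that of T in 112 regions, M in 85 and G in 75.

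At the 3-fold threshold, the region just inside was chr13:24694841-24695089 with a ratio of 3.00 in GMT, and that just outside was chr10:29246640-29246902 with 2.996. At the ceiling for single factors, chr7:121616106-121616586 with 1.667 in T was just inside and chr12:21445355-21445958 with 1.671 in T was just outside. The former reached 5.51 and the latter 3.15 times the control in GMT.

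A negative binomial model over the whole table (edgeR's quasi-likelihood test with Benjamini-Hochberg adjustment, 20494 regions after a filter on low counts) gives the calls made at an adjusted p below 0.05. Of the 272 regions, 250 passed the filter. Higher than the control were called 225 in GMT, 117 in MT, 75 in GT and 44 in GM, where 23.0% of all regions tested were called higher in GMT, 17.5% in MT, 13.1% in GT and 8.5% in GM. None was called higher in G, M or T, where 9.61%, 9.67% and 14.5% of all regions were. At an unadjusted p below 0.05, 4 were higher in G, 4 in M and 10 in T, and DESeq2 also called none higher in the 3 single factors. The choice used these comparisons, and nothing is read from the counts. The calls in GMT include 37 MT regions, 20 GT regions and 15 GM regions. The count in GT was 4 without GT replicate 2, 46 without control replicate 2 and 27 without control replicate 3. That in GM was 17 without control replicate 3, 29 without control replicate 2 or GM replicate 3 and 25 without GM replicate 1, and that in MT 74 without control replicate 3. Without control replicate 1, 1 region was called higher in G, 1 in M and 6 in T, and 1 was called in T without control replicate 2 or T replicate 3.

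Single factors with the same inhibitors are the matched reference for the combinations. The highest combination was called higher than each of its own single factors in 150 of the 250 regions by edgeR's quasi-likelihood test, against 1.79% of all regions tested. This held in 110 of 153 GMT regions, 21 of 53 MT regions, 15 of 22 GM regions and 4 of 22 GT regions, where 6.22%, 1.3%, 0.406% and 0.135% of all regions with that highest combination were called. The direction is fixed by the choice of regions. GMT was called higher than G in 208, than M in 202 and than T in 138 regions, where 20.3%, 18.7% and 9.54% of all regions were. Leaving out GMT replicate 2 or 3 turned the count of 150 into 80 or 77. It was 60 without T replicate 2, 93 without M replicate 1, 94 without M replicate 2 and 99 without T replicate 1. DESeq2 gave 107.

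The same levels were then read in libraries that had not chosen the regions. The choice was repeated without the libraries of one replicate number, and the highest combination of each region was compared with the control, G, M and T in the replicate left out. With replicate 2 left out, 203 regions were chosen and in 168 (82.8%) the combination lay above all 4, where 26.9% of all regions did. With replicate 3 left out it was 218 of 273 (79.9%), where 27.7% of all regions did, and with replicate 1 left out 222 of 510 (43.5%), where 17.8% did. The median ratio of the combination to the control in the left-out libraries was 3.27 for replicate 2, 3.81 for replicate 3 and 1.51 for replicate 1. In the left-out libraries the median ratios of G, M and T were 1.23, 1.15 and 1.04 for replicate 2, 1.14, 1.65 and 1.68 for replicate 3 and 1.1, 0.875 and 1.11 for replicate 1. In replicate 3 the single factors M and T thus stood at about their ceiling. Each comparison rests on 1 library per group, and no test was made.

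The low value for replicate 1 lay in GMT and GT regions. There, 144 of 373 GMT regions and 8 of 56 GT regions held in the libraries of replicate 1, against 32 of 35 GM regions and 38 of 46 MT regions. Of all regions with that highest combination, 17.1% held in GMT, 19.3% in GT, 16.0% in GM and 19.4% in MT. The GT regions, at 14.3%, were thus below that share, whereas the GMT regions, at 38.6%, were above theirs. In replicate 2, 105 of 115 GMT regions, 29 of 30 MT regions, 31 of 53 GM regions and 3 of 5 GT regions held. The shares of all regions with that highest combination were 37.5%, 30.3%, 22.7% and 19.0% in the same order. In replicate 3, 100 of 105 GMT regions, 19 of 20 GM regions, 21 of 27 GT regions and 78 of 121 MT regions held. The corresponding shares of all regions were 38.1%, 22.2%, 21.8% and 30.8%. GMT and GT replicate 1 are the shallowest library and the library closer to G than to GT, and their part in the low value was not tested. Without the library labelled GT replicate 1 the share was 47.1% in replicate 1, 78% in replicate 2 and 75% in replicate 3. The sets chosen without replicates 1, 2 and 3 held 168, 128 and 141 of the 272 regions.

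**Figure D5:**
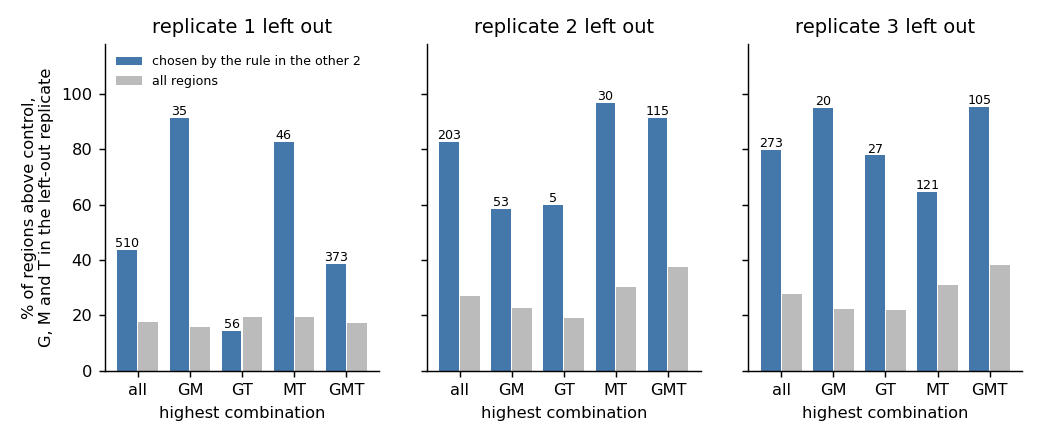
Percent of regions (vertical axis) whose highest combination lay above control, G, M and T in the replicate left out, for regions chosen in the other replicates (blue, number of regions above the bar) and for all regions (grey), in all and by highest combination. GMT regions reach 91.3% and 95.2% in replicates 2 and 3 and 38.6% in replicate 1.

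The level of GMT relative to a pair had no uniform direction between replicates. At the regions that passed 3 times the control in a pair, the GMT mean was above the pair mean in 2 of 27 for GM, 15 of 40 for GT and 13 of 74 for MT. Since these regions were chosen for a high pair, that count is biased towards a lower GMT. In the left-out libraries, GMT exceeded MT in 21 of 76 regions in replicate 1, 12 of 45 in replicate 2 and 105 of 144 in replicate 3, where 49.6%, 44.7% and 51.2% of all regions did. GMT exceeded GM in 10 of 48, 34 of 57 and 6 of 23, where 50.3%, 41.8% and 52.6% did, and GT in 59 of 107, 0 of 5 and 24 of 40, where 48.5%, 52.3% and 49.8% did. The replicates thus disagreed in direction for each pair. Each comparison set 1 library against 1 other, and that with GT in replicate 2 held only 5 regions. MT replicate 3 and GM replicate 2 had the lowest shares of counts in the 272 regions of their groups, 0.475% and 0.343%. GMT replicate 1 was the shallowest library. The part of these libraries in the disagreement was not tested, so no effect of the third factor is read from it. For regions that passed in GMT only, GMT exceeded all pairs in 66 of 98 in replicate 2 and 64 of 72 in replicate 3, where 21.5% and 24.9% of all regions did, but in 64 of 291 in replicate 1, where 28.7% did.

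Calls between GMT and MT were few, at these regions and over the whole table. By edgeR's quasi-likelihood test GMT was called higher than GM in 130 of 250 regions (52%), than GT in 76 (30.4%) and than MT in 11 (4.4%). Of all regions tested, 12.0%, 5.68% and 0.839% were. The choice used the levels of the combinations, so nothing is read from these shares. GMT was called lower than GM in 5 and lower than MT in 1, where 1.7% and 0.146% of all regions were, and lower than GT in none, where 1.28% of all regions were, 1 of the 250 was lower at an unadjusted p below 0.05, DESeq2 called none and 1 was called without GT replicate 1 or GT replicate 2. The count above MT was 36 without GT replicate 1 and 51 without GMT replicate 1, but 0 without MT replicate 1, MT replicate 2 or GMT replicate 3, 1 without GMT replicate 2 and 4 without MT replicate 3. It was 20 to 33 without G replicate 2, T replicate 3, GM replicate 2, GT replicate 2 or GT replicate 3. That above GT was 44 without GT replicate 1, 41 without GMT replicate 2 and 25 without GMT replicate 3, and that above GM 81 and 63 without GM replicates 1 and 3 and 58 and 66 without GMT replicates 2 and 3. The 5 regions lower in GMT than in GM, named after their values were seen, were all GM regions. They include region 4 of GM and chr13:75764962-75765407, with 156 CPM in GM, 68.9 CPM in GMT and 28.5 CPM in the control. At chr9:4310818-4311044 the means were 57.3 CPM in GM, 10.1 CPM in GMT and 9.53 CPM in the control, and at chr15:51727082-51727389 they were 59.7, 23.7 and 12 CPM. At chr16:24096279-24096481 they were 32.5 CPM in GM, 5.78 CPM in GMT and 5.09 CPM in the control. The number lower than GM was 1 to 3 without GM replicates 1 or 3 or GMT replicates 2 or 3, and 8 without GT replicates 1 or 2. The region lower in GMT than in MT was chr17:63361583-63361867, with 47.6 CPM in MT, 8.86 CPM in GMT and 7.9 CPM in the control, and it was not called without MT replicates 1 or 2 or GMT replicates 2 or 3.

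The level of the single factor that a pair lacks is described next, as part of the levels that the choice used. In 21 of 25 GT regions (84%) M was the lowest single factor, where it was lowest in 44.9% of all regions with GT as the highest combination. T was the lowest in 18 of 25 GM regions (72%), where 64.3% of the corresponding regions had it lowest, and G in 37 of 61 MT regions (60.7%), where 50.2% had. Those latter shares lie near the background. The choice used the single-factor levels and the regions of the background did not have to pass it, so nothing is read from any of these shares. The M libraries held 0.00976%, 0.0152% and 0.0162% of their counts in the GT regions, all below the control libraries with 0.0245%, 0.0205% and 0.0171% and below every G and T library. The T libraries held 0.00889%, 0.00931% and 0.017% in the GM regions, below all G and M libraries and overlapping the control. The G libraries held 0.0337%, 0.057% and 0.0201% in the MT regions, where G replicate 2 lay above M replicate 1 with 0.0542% and the control libraries held 0.066%, 0.0483% and 0.0296%. Without GT replicate 1 the number of GT regions rose to 69, and M was lowest in 54 of them (78.3%).

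Of the 250 regions tested by edgeR, 2 were called lower than the control in M and 2 in G, where 6.47% and 6.07% of all regions were. These 4 regions are named after their values were seen. Lower in M were region 2 of GT and chr13:21510860-21511066, a GT region with 2.96 CPM in M, 13.9 CPM in the control and 55.6 CPM in GT. Lower in G were 2 MT regions. At chr4:28228932-28229612 G had 14.9 CPM, the control 35 CPM, MT 130 CPM and GMT 126 CPM. At chr6:36558362-36558901 G had 5.66 CPM, the control 17.3 CPM, MT 71.4 CPM and GMT 37.1 CPM.

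Width and position are not named in the choice and were read last. The 272 regions had a median width of 306.5 bp with quartiles of 223.5 and 390 bp, wider than the 234 bp of all regions and like the 299 bp of the 3404 regions opened at least 3 times by a single factor. The median was 338 bp in GMT regions, 281 bp in GT regions, 274 bp in GM regions and 249 bp in MT regions. A width of 500 bp or more was found in 27 (9.93%), of which 21 were GMT regions and none GM regions, against 5.03% of all regions. Of the regions opened by a single factor, 10.5% had that width. Counts were not divided by width, and its part in the choice was not tested. The 272 regions lay on all chromosomes except Y, which held only 5 regions of the table. There were 24 each on chromosomes 2 and 8, 21 on chromosome 7 and 4 on chromosome 17. As a share of all regions of the chromosome, that was 0.946%, 1.47%, 1.51% and 0.369%.

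The regions lay closer to other accessible regions than the average. The nearest other region of the table was a median of 7.64 kb away, against 13.1 kb for all regions and 10.9 kb for regions opened by a single factor. A region opened by a single factor lay within 50 kb of 84 of the 272 (30.9%), against 24.05% of all regions. Among regions opened by a single factor themselves, 34.1% had another within 50 kb, so this nearness is not particular to the 272. The median distance to a region opened by a single factor differed little, at 158 kb against 163 kb for all regions. It was 178 kb for the 158 regions with separated libraries and 103 kb for regions opened by a single factor. By factor the shares within 50 kb were 18.4% for T, 14% for M and 6.25% for G, against 13.1%, 7.83% and 6.93% of all regions. Regions opened by a single factor had 20.5%, 9.64% and 9.64%. Among MT regions 13 of 61 (21.3%) had an M-opened and 9 (14.8%) a T-opened region within 50 kb. These are descriptions of position, with no test.

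Some regions stood next to each other, and 21 of the 272 (7.72%) lay within 10 kb of another. The corresponding share of all regions is not given here, so nothing is read from that count. On chromosome 8, 4 lay between positions 107128478 and 107135877. Of these, chr8:107128478-107129060, chr8:107135129-107135377 and chr8:107135488-107135877 were GMT regions, and chr8:107133214-107133414 was an MT region where the control had 7.38 CPM and MT 42.4 CPM. On chromosome 2, chr2:113955982-113956237 passed in GM, MT and GMT, at 24.7 CPM in GM and 26.8 CPM in MT, while chr2:113956351-113956567 and chr2:113956657-113956857 were MT regions, at 26.9 and 21 CPM in MT and 5.84 and 5.53 CPM in GM. Between midpoints, the chromosome 2 neighbours lay 0.35 and 0.298 kb apart. On chromosome 8, chr8:107135129-107135377 and chr8:107135488-107135877 lay 0.43 kb apart. Neighbours that close can share DNA fragments, so they are not independent of each other. The other neighbours on chromosome 8 lay 4.5 and 1.9 kb apart. These groups of neighbours were picked out after their values were seen.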

How the data were processed

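ATAC-seq reads were processed by the authors with Bowtie2, Picard and featureCounts on mm9, per the submitters' processing notes, and the values deposited are unnormalised counts, 1 per region and library. How the regions were called is not given in the sources used here. CPM was computed from each library's column total. The 272 regions and all lists were chosen with earlier results of these data known. The named regions are, per combination with the highest level, up to 5 with the largest ratio to the highest of control, G, M and T among those with separated libraries and at least 20 CPM, plus those nearest each threshold. All 24 libraries entered 1 fit in edgeR 4.0.16 (R 4.3.3, limma 3.58.1) with TMM scaling, the filterByExpr filter and quasi-likelihood tests of group contrasts, adjusted by Benjamini-Hochberg over all regions tested. The scripts were tested on simulated data. DESeq2 1.42.0, other scalings, filters, thresholds and left-out libraries were alternatives. Totals of 241394 to 1704896 counts limit the precision. Replicates are separate libraries by label. The p-values set a group difference against a spread between replicates that was estimated over all 8 groups together and drawn towards that of other regions. A group with divergent libraries was thus not judged by its own spread alone. Gene assignment and sequences were not used here.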

Additional observations from a re-analysis of the deposited data

How the results depend on the processing

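The number and the identity of the regions moved with the limits of the choice. With 10 added to the mean CPM it was 155, 84 of them among the 272 (GM 13, GT 13, MT 48, GMT 108), and with 2 added it was 404, 158 of them among the 272 (GM 61, MT 119). A ceiling of 1.5 for single factors gave 178 (GM 17, GT 21, MT 49) and one of 2 gave 545 (GM 81, GT 75, MT 177, GMT 361). A threshold of 2.5 gave 589 (GM 91, GT 83, MT 172, GMT 395) and one of 4 gave 70 (GM 4, GT 11, MT 19, GMT 47). Medians of replicates gave 344 regions, 169 of them among the 272, with 44 in GM. TMM scaling gave 231 regions, 210 of them among the 272. With 10 added, 89.7% held in the left-out replicate 2. The 158 separated regions had a median width of 312.5 bp and lay 9.17 kb from the next region and 178 kb from the next region opened by a single factor, against 158 kb for all 272. With a minimum count of 30, fewer regions were tested and the calls above the control were 9 in GM, 19 in GT, 31 in MT and 52 in GMT, those of GMT above GM, GT and MT 34, 22 and 3, those below GM and MT 2 and 0, and those above the single factors 44. With no filter, 8 were lower in GMT than in GM.

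Leaving out 1 library or 1 replicate number gave 203 to 510 regions, with 18 to 69 in GM, 5 to 107 in GT, 43 to 144 in MT and 126 to 400 in GMT. The calls above the control ranged from 0 to 56 in GM, 0 to 106 in GT, 44 to 136 in MT, 37 to 239 in GMT, 0 to 1 in G, 0 to 1 in M and 0 to 6 in T, and those above the single factors from 6 to 193. GMT was called above GM in 4 to 165, above GT in 8 to 101 and above MT in 0 to 51, and below them in 0 to 8, 0 to 1 and 0 to 1. Without GT replicate 1, chosen after seeing the data, M was lowest in 54 GT regions. The ratios of the 18 named regions ranged from 2.38 to 10.7 over 108 alternatives, of which 94 lay within 1 SD and 14 did not. That SD was taken over the libraries of the highest combination and divided by the control mean CPM + 5. It leaves out the spread of the control, and the alternatives used the same libraries, so nothing is read from the 94. The number that fell below the control was 0. These regions were named for libraries separated from the control, so nothing is read from that number. The cause of these changes was not tested, except that fewer regions or libraries entered some.

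Replicate numbers did not pair the libraries in the same way across groups. Over 84 pairs of libraries with the same number, deviations from the group means correlated between -0.44 and 0.48, with a median of 0.015 and 24 over 0.1, and 11 of 24 libraries were closest to their own number. Between G and GM the same numbers correlated at 0.44, 0.46 and 0.30 for replicates 1, 2 and 3. Between GM and GMT they correlated at -0.44, -0.38 and -0.04. A pairing of some groups by number thus remains possible. With the replicate block, calls above the control were 42 in GM, 72 in GT, 117 in MT and 225 in GMT, and 147 above the single factors. GMT was called above GM, GT and MT in 121, 84 and 11 and below them in 6, 0 and 1, so the block moved no count of calls by over 1.5 times.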
